A study of Mus musculus with 3 samples.

Results

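The keratinocytes of the upper hair follicle were picked cell by cell from single-cell RNA libraries of the skin of C57BL/6 mice, 7 weeks old. The series holds 3 libraries, 1 for each of the labelled agents control, Shi-Bi-Man and metformin, so no agent has a replicate, and neither dose, route nor the number of mice is given in the labels. Expression was analysed here in the control and the metformin library, and no test between them is possible: the agent, the mouse and the preparation cannot be told apart. Metformin is a biguanide drug known to inhibit complex I of the respiratory chain.

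A barcode was kept if it had at least 800 unique molecular identifiers (UMIs, each counting 1 captured RNA molecule), at least 300 genes and at most 20% mitochondrial UMIs. A kept cell was a member if Krt79, Cst6 and Defb6 together had at least 10 UMIs with at least 2 of these 3 genes detected, if it had a Krt17 UMI, and if Scd1 and Mgst1 made up under 1% of its UMIs. The last clause sets aside cells rich in sebaceous lipid genes and removed 8 cells in each library. By this rule 1438 of 23292 kept cells were members, 815 of 11554 in control and 623 of 11738 in metformin. These are 7.05% of the control cells (exact binomial 95% interval 6.59% to 7.54%) and 5.31% of the metformin cells (4.91% to 5.73%). All intervals cover counting error only, and a ratio of summed UMIs that rests on few cells is less certain than its interval says.

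The upper hair follicle holds the isthmus, the junctional zone and the funnel-shaped infundibulum through which the hair leaves the skin. Its cells line the hair canal and the sebaceous duct, and they are known for the keratin Krt79 and the transcription factor Gata6. The canal lining sheds cornified cells and makes antimicrobial peptides, proteases and protease inhibitors.

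The genes behind the class lie on several chromosomes of GRCm38 (GENCODE M21). Krt79 is at chr15:101929332-101940324 on the minus strand, Cst6 at chr19:5344705-5349574 on the minus strand, Defb6 at chr8:19225478-19228209 on the plus strand and Krt17 at chr11:100256217-100261029 on the minus strand. The label markers that the rule did not use are Klk7, a serine protease that cuts the links between cornified cells, at chr7:43811294-43816359 on the plus strand, and Alox12e, an epidermal lipoxygenase, at chr11:70315610-70322628 on the minus strand. Of these 6 label markers, 4 had a RefSeq promoter window (GRCm38.p6, 250 bases before to 50 after the gene's start), and Cst6 and Krt17 had none. The windows of Krt79, Defb6 and Klk7 are shown because these genes mark the members, and that of Krt10, a keratin of suprabasal epidermis, because its level sets apart a second kind of cell among them. They are written 5′ to 3′ on the gene's strand, at chr15:101940275-101940574 (minus), chr8:19225228-19225527 (plus), chr7:43811044-43811343 (plus) and chr11:99389315-99389614 (minus), and capitals mark AGATAA, a form of the site that GATA factors are known to bind, and the TATA box letters TATAAA upstream of the start.
Krt79: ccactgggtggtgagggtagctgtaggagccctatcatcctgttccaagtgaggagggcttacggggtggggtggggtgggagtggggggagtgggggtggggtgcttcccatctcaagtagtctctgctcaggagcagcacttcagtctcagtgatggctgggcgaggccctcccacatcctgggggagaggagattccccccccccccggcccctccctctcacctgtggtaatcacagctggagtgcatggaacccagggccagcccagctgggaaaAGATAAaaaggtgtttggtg
Defb6: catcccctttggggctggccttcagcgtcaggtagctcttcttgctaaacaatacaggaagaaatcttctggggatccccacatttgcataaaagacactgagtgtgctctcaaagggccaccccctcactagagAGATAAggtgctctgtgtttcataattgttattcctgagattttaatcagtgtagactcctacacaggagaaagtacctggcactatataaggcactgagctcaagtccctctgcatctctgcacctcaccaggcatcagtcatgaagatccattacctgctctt
Klk7: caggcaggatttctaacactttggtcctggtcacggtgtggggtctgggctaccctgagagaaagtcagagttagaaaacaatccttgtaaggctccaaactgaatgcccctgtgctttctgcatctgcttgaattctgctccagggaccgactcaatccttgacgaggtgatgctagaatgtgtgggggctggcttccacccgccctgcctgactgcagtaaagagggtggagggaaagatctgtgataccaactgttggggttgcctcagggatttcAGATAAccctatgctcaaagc
Krt10: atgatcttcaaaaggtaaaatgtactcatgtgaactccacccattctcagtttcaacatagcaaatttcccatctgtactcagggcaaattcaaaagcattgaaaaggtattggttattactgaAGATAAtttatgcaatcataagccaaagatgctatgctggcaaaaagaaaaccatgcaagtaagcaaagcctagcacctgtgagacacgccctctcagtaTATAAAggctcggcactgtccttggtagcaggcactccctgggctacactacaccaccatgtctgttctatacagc
The first motif was searched on both strands and the second on the strand of the gene, and both were chosen after the windows had been read. Each printed window held 1 AGATAA, whereas that of Alox12e held 0. The match starts 30 bases after the first transcribed base of Krt79, 115 before that of Defb6, 29 after that of Klk7 and 126 before that of Krt10. Of all 27025 windows of this length, 3083 (11.4%) held AGATAA. The letters TATAAA were found 26 bases before the start of Krt10 and in 8.88% of all windows. The first motif was thus present in Krt79 and in Defb6, which was higher in members with Krt79. It was also present in Klk7, which was high in members with and without Krt79, and in Krt10, which was higher without it. A match of letters is not a bound site.

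The members were not 1 kind of cell. Krt79 had no UMI in 261 of the 815 control members (32.0%) and in 107 of the 623 metformin members (17.2%), which entered through Cst6 and Defb6. In 236 of these 261 cells and in 83 of these 107, Krt1 and Krt10, the keratin pair of suprabasal epidermis, made up at least 1% of the UMIs. Among members with at least 10 Krt79 UMIs, this held for 17 of 461 cells in control and 12 of 428 in metformin. Between these ends, 21 of 46 control and 8 of 40 metformin cells with 1 or 2 Krt79 UMIs had this much Krt1 and Krt10. The split at 1 Krt79 UMI was chosen after the data had been seen and is used below as a description.

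**Figure D1:**
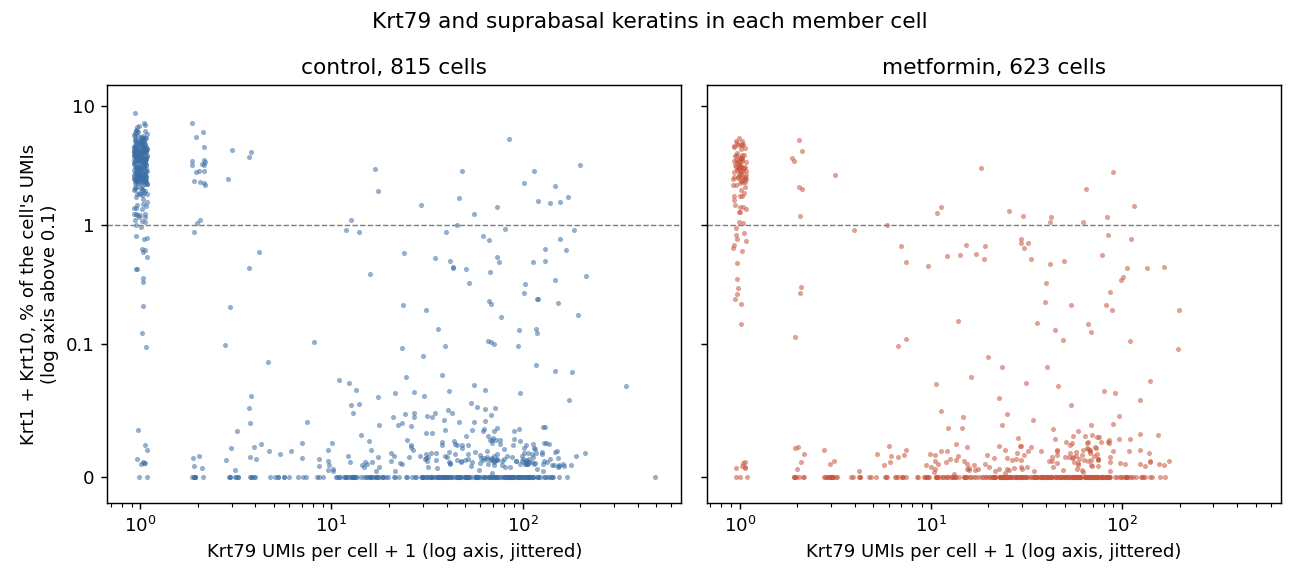
Krt79 UMIs plus 1 (x axis, log scale) against the share of Krt1 and Krt10 in the cell's UMIs (y axis, percent, log scale above 0.1) for the 815 control and 623 metformin members, 1 point per cell, with a dashed line at 1%. Of the cells at 0 Krt79 UMIs, 236 and 83 lie at or above the line, whereas 17 and 12 of the cells with 10 or more Krt79 UMIs do.

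Cells without Krt79 were the deeper ones. Their median was 14558 UMIs in control and 13875 in metformin, against 7972.5 and 7591.5 in members with a Krt79 UMI, so the missing Krt79 did not go with lower depth. Just inside the threshold, at 10 to 12 UMIs of the 3 rule genes, 12 of 40 control and 17 of 25 metformin members had Krt79. Just outside it, at 7 to 9 UMIs, 22 of 50 and 19 of 39 cells had it. Members with Krt79 were 4.79% of all kept control cells and 4.40% of metformin cells, and members without it 2.26% and 0.912%.

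The label was checked with Gata6, which the rule did not use. In members with a Krt79 UMI, Gata6 had 89.5 and 78.6 CPM (counts per 1000000 UMIs of the summed cells) in control and metformin, and in members without one 1.52 and 1.29 CPM, from 6 and 2 UMIs. A Gata6 UMI was found in 46.6% and 44.8% of the cells with Krt79, in 0.766% and 0.935% of those without, and in 0.386% and 0.251% of fibroblasts, which stand here for cells that should lack the gene. Fibroblasts were shallower, with medians of 2644 and 3488.5 UMIs. After each cell was thinned to 1500 UMIs, the shares were 14.6% and 14.4% with Krt79, 0.385% and 0.943% without, and 0.191% and 0.0704% in fibroblasts. Thinning left out 12 and 10 members with Krt79, 1 and 1 without, and 494 and 174 fibroblasts. The label of upper hair follicle was thus borne by the members with Krt79, while in those without it Gata6 was close to the background, and they are called here by their genes only.

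The rule's own genes are given as a description. In members with a Krt79 UMI, Krt79 had 6167 and 4738 CPM in control and metformin. Cst6, an inhibitor of cysteine proteases, had 29146 and 13850 CPM with Krt79 and 1415 and 944 CPM without. Defb6, a beta-defensin, had 11832 and 9510 CPM with Krt79 and 1369 and 1135 CPM without. The split by Krt79 and the rule fix part of these differences. Krt17, a keratin of follicle epithelium, had 10242 and 7331 CPM with Krt79 and 1393 and 1771 CPM without. The cells with Krt79 also differed among themselves: in control the lower and upper quartiles of single cells were 2401 and 10776 CPM for Krt79 and 1282 and 48602 CPM for Cst6.

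The label markers outside the rule did not separate the kinds equally. Klk7 was high in both, with 683 and 639 CPM in control and metformin with Krt79, 529 and 312 CPM without, and 1.48 and 1.22 CPM in basal cells. A Klk7 UMI was present in 73.1% and 74.6% of members with Krt79, against 0.482% and 0.188% of fibroblasts. Alox12e had 342 and 308 CPM with Krt79 and 85.1 and 98.9 CPM without, the latter beside 97.8 and 93.0 CPM in suprabasal cells. Klk7 was thus high in both kinds of member, and Alox12e mainly in those with Krt79. Plet1, a surface protein of the isthmus and junctional zone, had 404 and 303 CPM with Krt79 and 149 and 137 CPM without. Lrig1, which restrains growth factor receptors and marks the junctional zone, had 49.4 and 51.9 CPM with Krt79 and 6.58 and 5.14 CPM without, but also 43.6 and 38.7 CPM in fibroblasts.

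**Figure D2:**
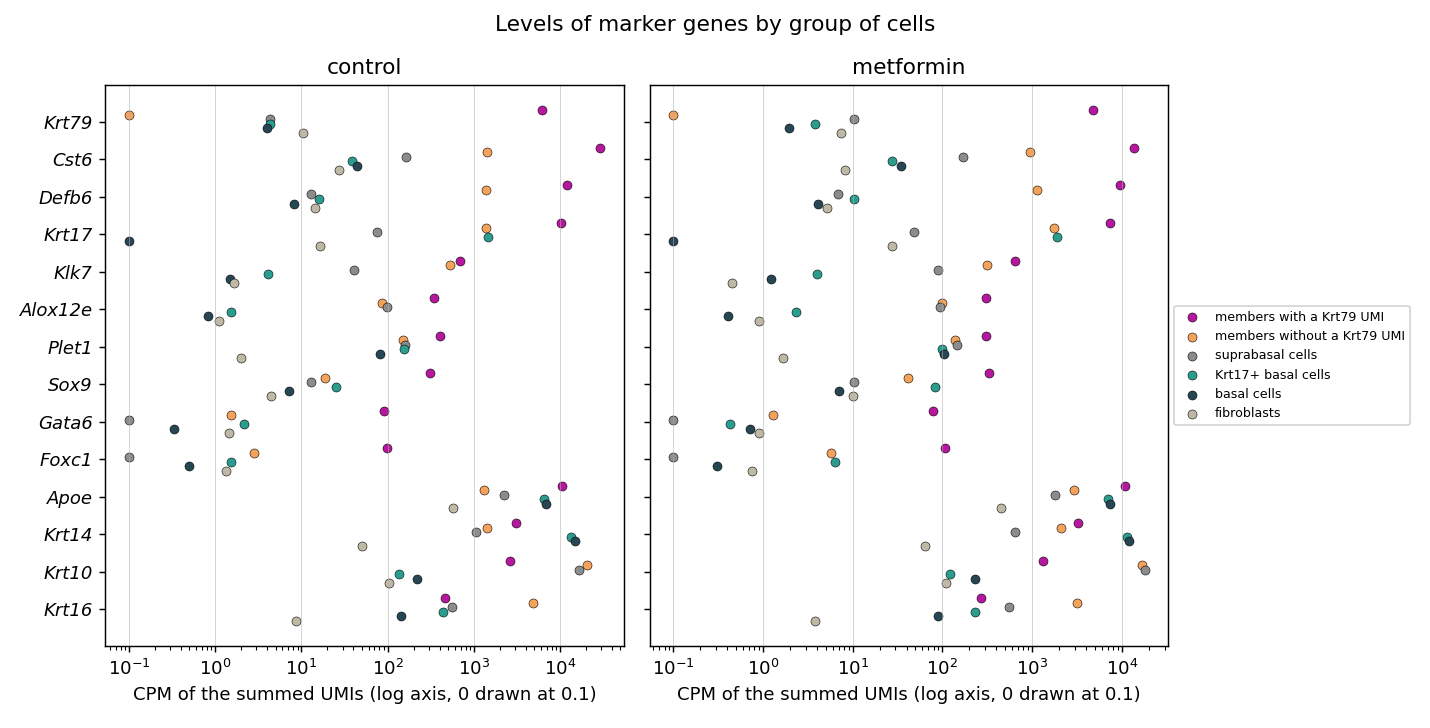
CPM of the summed UMIs (x axis, log scale, 0 drawn at 0.1) of 14 genes in members with and without a Krt79 UMI and in 4 groups of comparison cells, in control (left) and metformin (right), 1 point per group. Gata6 lies at 89.5 and 78.6 CPM in members with Krt79 and at most at 2.18 CPM in any other group, and Krt10 of members without Krt79 (20667 and 16835 CPM) lies near that of suprabasal cells (16478 and 17912 CPM).

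Of 9848 genes measured (at least 20 UMIs in each library), 1020 (10.4%) were at least 2-fold higher with Krt79 than without in both libraries and 463 (4.7%) at least 2-fold lower. Against that background, 9 of 11 junctional zone, isthmus and infundibulum genes were higher with Krt79 and 0 lower. Akr1c18, a hydroxysteroid dehydrogenase, had 113 and 138 CPM with Krt79 and 1.27 and 0.643 CPM without. Foxc1, a forkhead transcription factor, had 98.0 and 107 CPM with Krt79 and 2.78 and 5.78 CPM without. Both were nearly lacking in the cells without Krt79. Sox9, a transcription factor of follicle progenitors, had 313 and 327 CPM with Krt79 and 18.7 and 41.8 CPM without.

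Of 14 sebaceous genes, 8 were higher with Krt79 and 2, Dgat2 and Fabp5, were lower. One of the 8, Mgst1, was used by the rule. Plin2, which coats lipid droplets, had 131 and 128 CPM with Krt79 and 3.29 and 8.995 CPM without. Pparg, the nuclear receptor of sebocyte formation, was low with Krt79, at 6.52 and 9.62 CPM, and had 0 UMIs without. Cd200, a surface protein that restrains immune cells, had 152 and 169 CPM with Krt79 and 10.6 and 19.9 CPM without. Of 20 cytokine and chemokine genes, 4 (Ccl2, Ccl27a, Cxcl1 and Cxcl10) were higher with Krt79 and 4 (Ccl20, Il1f5, Il1f9 and Il1rn) lower. Ccl27a, a chemokine for skin-homing T cells, had 1437 and 1702 CPM with Krt79 and 116 and 357 CPM without.

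Genes of differentiating epidermis were higher in the cells without Krt79. All 12 spinous genes were at least 2-fold higher in them in both libraries. Krt10 had 20667 and 16835 CPM without Krt79 and 2602 and 1308 CPM with it, and Krt1 11187 and 8048 against 1185 and 625 CPM. Of 20 granular and cornified envelope genes, 13 were higher without Krt79 and 1, Sprr4, was lower. Sprr1b, a precursor of the cornified envelope, had 2558 and 1365 CPM without Krt79 and 296 and 71.3 CPM with it. Of 19 barrier lipid genes, 12 were higher without Krt79 and 3, Alox12e, Cers4 and Fa2h, were lower. Alox12b, a lipoxygenase of the skin barrier, had 137 and 72.0 CPM without Krt79 and 14.6 and 2.51 CPM with it. Of 19 cholesterol synthesis genes, 12 were higher without Krt79 and 0 lower.

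Krt16 differed between the cells without Krt79 and the suprabasal cells. Krt16, a keratin induced by wounding and also made in the follicle, had 4781 and 3148 CPM in members without Krt79, 559.6 and 548 CPM in suprabasal cells and 463 and 266 CPM in members with Krt79. Krt6b, a keratin of the same settings, had 149.9 and 348 CPM without Krt79 and 12.5 and 16.7 CPM with it. S100a8, an alarmin, had 80.0 and 267 CPM without Krt79 and 5.14 and 7.53 CPM with it, but a UMI of it was found in only 4.60% and 2.80% of the cells without Krt79. The suprabasal cells were few (99 and 55), and had to hold at least 2% Krt1 and Krt10 and fewer than 3 UMIs of the rule genes. Krt14, Krt16 and Krt17, the Krt6 genes, the Sprr genes and the Stfa genes have close copies, and the split of reads among them in the deposited counts is uncertain.

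Members with Krt79 were next set against keratinocytes of other places. Basal cells (694 and 1190) had Krt5 and Krt14 at 1% or more of their UMIs and no Krt17. Krt17-positive basal cells (455 and 707) stood for the outer root sheath and stem cells. Over basal, Krt17-positive basal and suprabasal cells together, 903 of 11437 genes (7.9%) were at least 2-fold higher in both libraries and 644 (5.63%) lower. Genes were ranked by the lower of their ratios in the 2 libraries. Outside the rule's genes, Klk7 ranked first, with 139 in control (95% interval 106 to 184) and 165 in metformin (129 to 214). The gene listed as 2310046K23Rik had ratios of 141 and 95.8. Gata6 came next, with 84.8 in control (95% interval 48.1 to 165) and 134 in metformin (72.1 to 282). Aadac, an arylacetamide deacetylase, had ratios of 122 and 82.6, and Sdr16c6, of the short-chain dehydrogenase family, 83.5 and 90.6. Metabolic enzymes thus ranked beside the transcription factor. Gsdma, a gasdermin of skin epithelium, had ratios of 45.9 and 57.0, and Nebl, an actin-binding protein, 74.7 and 67.9. Atp6v1c2, a subunit of the proton pump, had ratios of 91.0 and 60.1. Klk5, a protease known in human skin to activate Klk7, had ratios of 44.2 and 26.0.

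Against basal cells alone, 980 of 11174 genes (8.77%) were at least 2-fold higher in all members in both libraries and 659 (5.9%) lower, and 905 of 10867 genes (8.33%) were at least 2-fold higher in members with Krt79 in both libraries and 612 (5.63%) lower. Junctional zone genes were split: 8 of 11 were higher and Cdh3, Lgr6 and Ly6a lower. Lrig1 had a ratio of 3.38 (95% interval 2.64 to 4.35) in control and 4.59 (3.66 to 5.80) in metformin. Lgr6, a receptor for R-spondins that marks stem cells above the bulge, had 9.69 and 13.4 CPM in members with Krt79 and 49.5 and 49.5 CPM in basal cells. The members with Krt79 thus held Lrig1 and little Lgr6. Sostdc1, an inhibitor of BMP and Wnt signals, had ratios of 5.28 and 9.89, and Fst, which binds activin, 24.3 and 22.8.

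The anchors of basal cells were lower. Of 14 basal keratinocyte genes, 12 were at least 2-fold lower than in basal cells and 0 higher, although the basal cells were chosen by Krt5 and Krt14. Itga6, an integrin of hemidesmosomes, had 76.9 and 107 CPM in members with Krt79 and 495 and 462 CPM in basal cells. Krt15, a basal keratin, had 885 and 1403 CPM in members with Krt79 and 2564 and 4116 CPM in basal cells. Both genes were lower in each library. Cell division genes were lower for 9 of 18 and higher for 0. Mki67, which marks dividing cells, had 12.3 and 41.0 CPM against 49.3 and 82.8 CPM in basal cells.

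Differentiation, lipid and defence genes were higher than in basal cells. Of 17 granular and cornified envelope genes, 13 were higher and 1, Tgm3, was lower. Of 13 kallikreins and desquamation genes, 6 were higher and 0 lower. Sebaceous genes were higher for 11 of 14, and Scd1 and Mgst1 among them were used by the rule. Antimicrobial genes were higher for 7 of 9, Defb6 included. Defb1, a beta-defensin outside the rule, had ratios of 16.7 and 12.6. Retinoid and aldehyde genes were higher for 9 of 16 and lower for 0. Crabp2, which carries retinoic acid to the nucleus, had ratios of 130.2 and 39.2. Notch pathway genes were higher for 4 of 10, Hes1, Notch2, Notch3 and Nrarp, and lower for the ligand Jag2. The 24 nuclear genes of complex I did not pass 2-fold in either direction. Against the few suprabasal cells instead, 4 of 17 granular and cornified envelope genes were higher in members with Krt79 and 2 lower. There, 3 of 13 kallikreins and desquamation genes, 4 of 14 sebaceous and 3 of 9 antimicrobial genes were higher and 0 lower. Mgst1 and Defb6, used by the rule, were among the higher genes. The share of all genes past 2-fold against suprabasal cells is not given here, so these counts stand without a background.

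Within the members with Krt79, the lowest share of Krt5 and Krt14 in the UMIs went with the highest suprabasal gene levels. The cells were cut into 4 bins at 0.0971%, 0.325% and 0.588% of UMIs, the quartiles of both libraries together. The libraries filled the lowest bin unequally, with 180 of 554 control cells (32.5%, 28.6% to 36.6%) and 88 of 516 metformin cells (17.1%, 13.9% to 20.6%). In bins 1 to 4, Krtdap, a secreted protein of differentiating keratinocytes, had 11659, 4261, 1045 and 2262 CPM in control and 6730, 1566, 1420 and 1854 CPM in metformin. Klk7 had 1061, 719, 379.6 and 463 CPM in control and 999, 607, 569 and 515 CPM in metformin. Sprr1a, an envelope precursor, had 3471, 1727, 794 and 919 CPM in control and 2342, 1066, 683 and 639.6 CPM in metformin. All 3 were highest in bin 1, and Krtdap was higher in bin 4 than in bin 3. Krt15 had 39.1, 954, 1682 and 1145 CPM in control and 247, 866, 2031 and 2169 CPM in metformin. Apoe, a lipid carrier, had 2779, 10373, 17302 and 14070 CPM in control and 2756, 10315, 14092 and 13299 CPM in metformin. Col17a1, a hemidesmosome collagen, had 8.84, 72.9, 120.1 and 259.8 CPM in control and 8.55, 79.6, 165 and 294 CPM in metformin. These 3 were lowest in bin 1, but only Col17a1 went up from bin to bin in both libraries.

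Gata6 had 68.8, 97.1, 118 and 82.4 CPM in control and 59.9, 73.5, 102 and 76.0 CPM in metformin in bins 1 to 4. Alox12e had 335, 409, 344 and 295 CPM in control and 305, 332, 328 and 264 CPM in metformin. For both genes the lowest and highest bins of a library were within 2-fold of each other, whereas for the label marker Klk7 bin 1 and bin 3 of control were not. The rule's genes Cst6 and Krt17 were higher in bin 1 than in bin 4, Cst6 going from 42001 to 20035 CPM in control and 29335 to 8441 CPM in metformin and Krt17 from 16416 to 5570 CPM in control and 12714 to 5748 CPM in metformin.

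**Figure D3:**
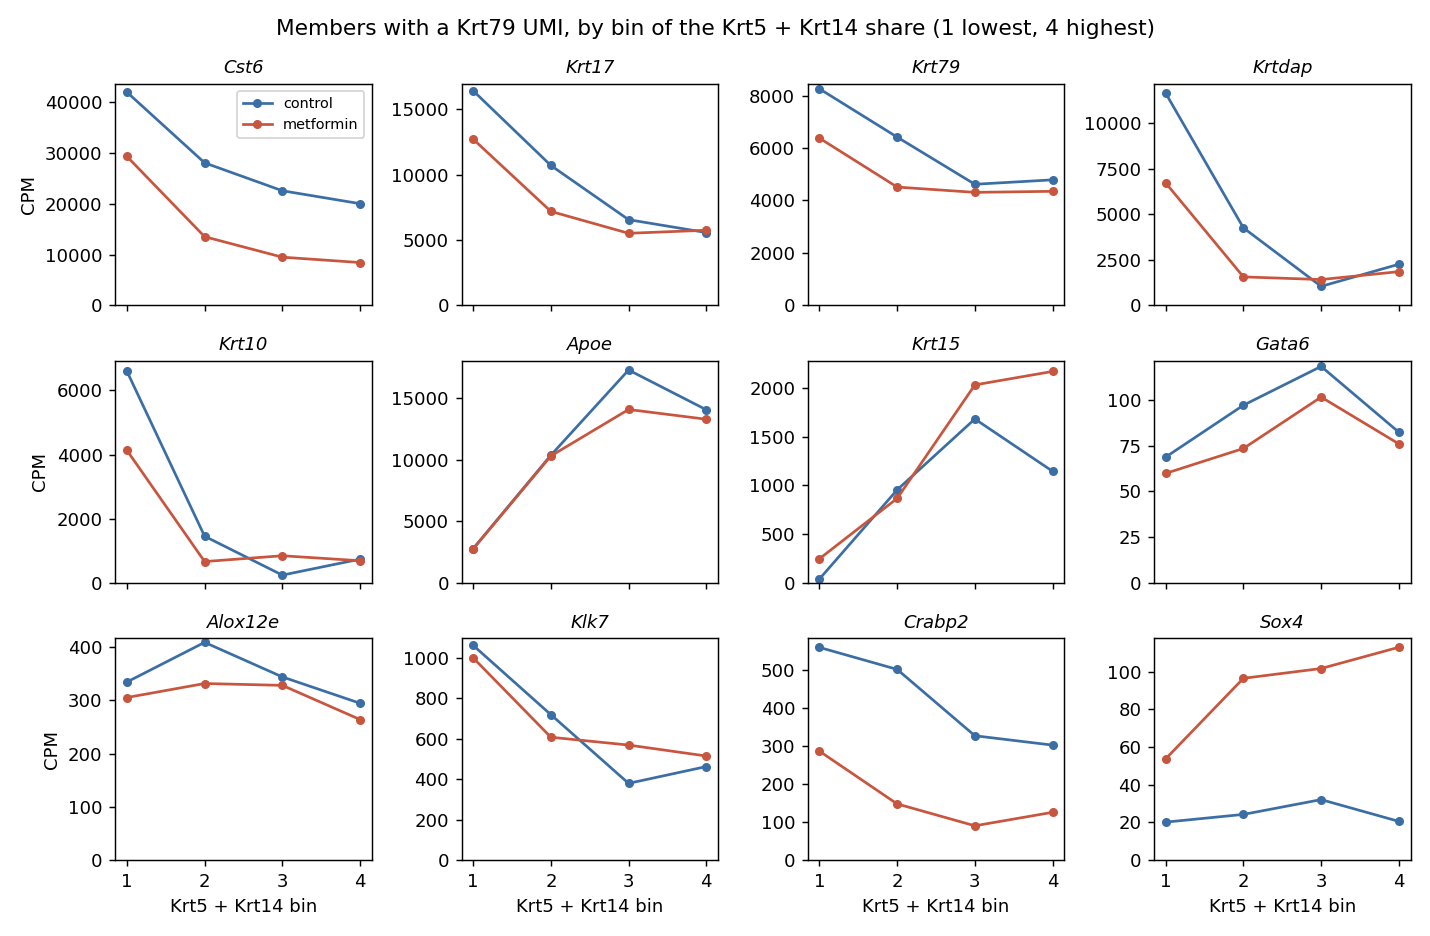
CPM (y axis, from 0) of 12 genes in members with a Krt79 UMI, by bin of the Krt5 and Krt14 share (x axis, 1 lowest to 4 highest; 180, 118, 129 and 127 control and 88, 149, 138 and 141 metformin cells), 1 line per library. Krtdap and Krt10 are highest and Apoe and Krt15 lowest in bin 1, and Gata6 lies between 59.9 and 118 CPM in all bins.

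Between the libraries, the follicle markers of the members with Krt79 had ratios near 1. The ratio of metformin over control was 0.878 (95% interval 0.764 to 1.01) for Gata6, 0.937 (95% interval 0.892 to 0.984) for Klk7, 0.899 (95% interval 0.839 to 0.965) for Alox12e and 1.09 (95% interval 0.961 to 1.24) for Foxc1. Of the rule's genes, given as a description, Krt79 had a ratio of 0.768, Defb6 0.804, Krt17 0.716 and Cst6 0.475. In this set, 538 of 11061 genes (4.86%) were at least 2-fold higher in metformin and 328 (2.97%) at least 2-fold lower, around a median log2 ratio of 0.08. Over all members, 797 of 11628 genes (6.85%) were higher and 408 (3.51%) lower, around a median of 0.12. With that median set to 0, 635 were higher and 506 lower. Since the cells without Krt79 were 32.0% of the members in control and 17.2% in metformin, ratios over all members mix composition with level: Gata6 was 1.17 and Krt10 0.487 over all members, and 0.878 and 0.502 in those with Krt79. Composition also differed within the members with Krt79, as the lowest Krt5 and Krt14 bin held 32.5% of control and 17.1% of metformin cells. In bins 1 to 4 the Krt10 ratio was 0.626, 0.456, 3.52 and 0.935, so its direction was not kept. The values below are for members with Krt79.

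Genes of retinoid handling went both ways. Among the retinoid and aldehyde genes, Crabp2, Cyp26b1 and Stra6 were at least 2-fold lower in metformin, and Aldh1a3, Crabp1 and Lrat at least 2-fold higher. Crabp2 had 428 CPM in control and 151 CPM in metformin, a ratio of 0.354 (95% interval 0.325 to 0.385), with a UMI in 370 control and 231 metformin cells. Lrat, which esterifies retinol for storage, had 16.01 CPM in control and 44.1 CPM in metformin, a ratio of 2.76 (95% interval 2.12 to 3.61), with a UMI in 57 control and 135 metformin cells. In bins 1 to 4, the ratios were 0.512, 0.295, 0.277 and 0.416 for Crabp2 and 2.98, 3.10, 2.17 and 3.09 for Lrat. Each kept its direction in every bin.

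Cornified envelope genes were lower in metformin, but on few cells. Of 21 granular and cornified envelope genes, 12 were at least 2-fold lower and 0 higher, with a median log2 ratio of -1.64. Lor, the main protein of the envelope, had 324 CPM in control and 31.2 CPM in metformin, with a UMI in 50 control and 15 metformin cells. The 10 highest cells held 97.6% of its control UMIs. Cnfn, an envelope component, had 126 CPM in control and 5.86 CPM in metformin, with a UMI in 32 control and 3 metformin cells, and 10 cells held 87.9% of its control UMIs. These envelope values thus describe a few cells. Within the lowest bin, Lor had 1012 CPM in control and 169.8 CPM in metformin, and Cnfn 378 and 33.0 CPM. Of 22 barrier lipid genes, 6 were lower and 0 higher.

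Klk6, a kallikrein, had 121 CPM in control and 15.3 CPM in metformin, a ratio of 0.126 (95% interval 0.0974 to 0.161), with a UMI in 111 control and 44 metformin cells. Klk13, of the same family, had 6.52 CPM in control and 24.3 CPM in metformin, a ratio of 3.72 (95% interval 2.51 to 5.65), with a UMI in 20 control and 70 metformin cells. The 2 kallikreins thus differed in opposite directions, and the other 11 of the list stayed within 2-fold. Areg, a ligand of the EGF receptor, had 177 CPM in control and 61.9 CPM in metformin, a ratio of 0.350 (95% interval 0.306 to 0.399), with a UMI in 204 control and 99 metformin cells. Of 12 EGF receptor pathway genes, Areg, Btc and Ereg, all ligands, were lower and 0 were higher. Of 21 desmosome and tight junction genes, 5 (Cgn, Cldn23, Cldn4, Dsc1 and Dsg1b) were lower and 1, Dsc2, was higher. Cldn4, a tight junction protein, had 271 CPM in control and 118 CPM in metformin, a ratio of 0.436 (95% interval 0.395 to 0.482), with a UMI in 314 control and 203 metformin cells. In bins 1 to 4 the ratios were 0.127, 0.112, 0.375 and 0.153 for Klk6, 3.77, 3.07, 8.56 and 6.65 for Klk13, 0.399, 0.312, 0.632 and 0.450 for Areg and 0.492, 0.341, 0.664 and 0.773 for Cldn4, each in 1 direction throughout. Ereg did not keep its direction, at 0.0346, 1.74, 3.08 and 0.317, on at most 6 UMIs per library in bins 2 to 4.

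Cytokines were lower for 11 of 26 genes and higher for 0. The 11 were Ccl2, Ccl20, Ccl8, Csf1, Cxcl2, Il18, Il1b, Il1f5, Il1f8, Il1f9 and Il1rn. Ccl20, which draws cells with the receptor Ccr6, had 82.2 CPM in control and 15.1 CPM in metformin, a ratio of 0.183 (95% interval 0.141 to 0.236), with a UMI in 61 control and 22 metformin cells. Of 19 cholesterol synthesis genes, 3 (Fdps, Lss and Mvd) were lower and 0 higher, with a median log2 ratio of -0.67. Fdps, which makes farnesyl diphosphate, had 374 CPM in control and 155 CPM in metformin, a ratio of 0.414 (95% interval 0.380 to 0.451), with a UMI in 387 control and 242 metformin cells. It was also lower in basal cells, with 147 CPM in control and 78.4 CPM in metformin.

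Of 15 follicle stem cell and outer root sheath genes, 4 (Krt75, Lgr5, Lhx2 and Ptch1) were at least 2-fold higher in metformin and 0 lower. Outside that list, Sox4 and Alcam were among the highest ratios of the comparison. Sox4, a transcription factor of progenitors, had 23.9 CPM in control and 94.9 CPM in metformin, a ratio of 3.97 (95% interval 3.24 to 4.89), with a UMI in 81 control and 184 metformin cells. Alcam, an adhesion molecule, had 33.2 CPM in control and 124 CPM in metformin, a ratio of 3.73 (95% interval 3.14 to 4.45), with a UMI in 89 control and 143 metformin cells. In bins 1 to 4 the ratios were 2.66, 3.97, 3.16 and 5.48 for Sox4 and 4.49, 2.58, 2.04 and 6.85 for Alcam, higher in each bin. In basal cells Sox4 had 48.5 and 58.3 CPM and Alcam 3.62 and 3.15 CPM in control and metformin. Of 18 cell division genes, 9 were higher and 0 lower. Mki67 had 12.3 CPM in control and 41.0 CPM in metformin, a ratio of 3.34 (95% interval 2.50 to 4.52), with a UMI in 23 control and 62 metformin cells. Stmn1, a tubulin-binding protein of dividing cells, had 224 CPM in control and 457 CPM in metformin, and ratios of 2.97, 2.92, 0.961 and 1.84 in bins 1 to 4, so that it was slightly lower in bin 3. The 14 basal keratinocyte genes stayed within 2-fold, with a median log2 ratio of 0.45.

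Lists tied to the known action of metformin stayed within 2-fold. The 24 nuclear complex I genes (median log2 ratio 0.03) and the 21 glycolysis and AMPK genes (-0.14) had 0 members past 2-fold. So had 18 immediate early genes (-0.18) and 12 heat shock genes (0.16), which are known to respond to the handling of cells. With 1 library per agent this sets no limit on a difference between agents.

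**Figure D4:**
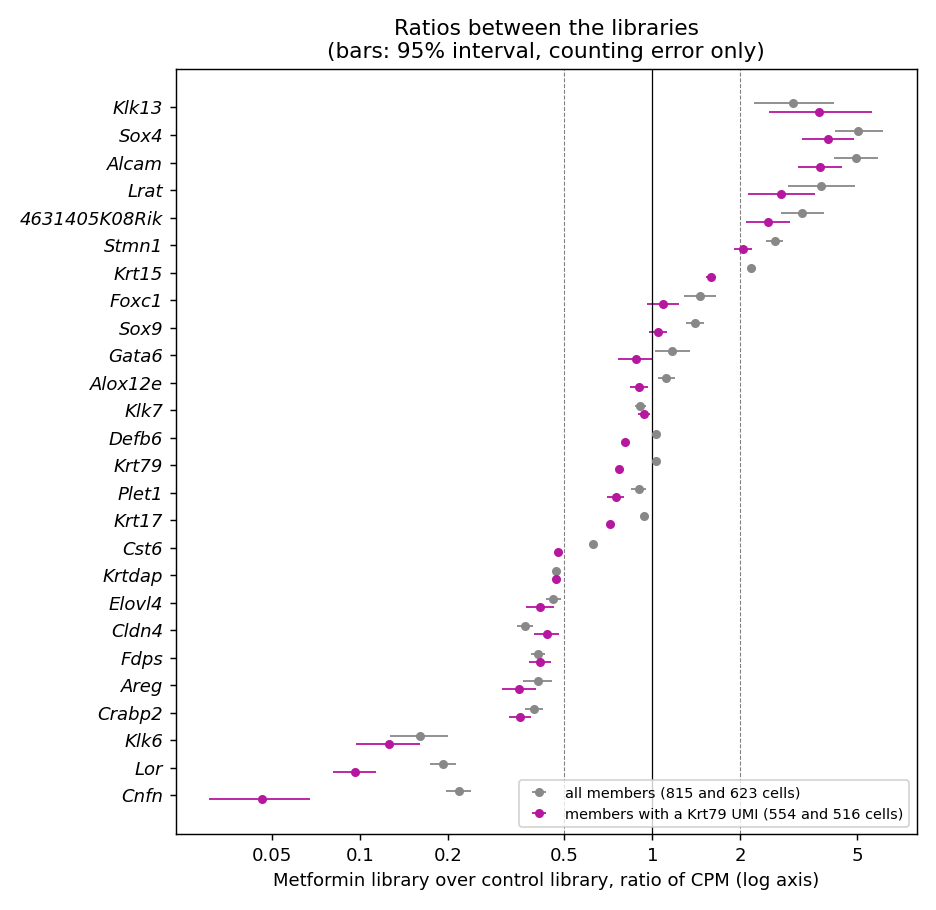
Ratio of metformin over control CPM (x axis, log scale) of 26 genes over all members (grey, 815 and 623 cells) and over members with a Krt79 UMI (purple, 554 and 516 cells); bars are 95% intervals for counting error only, and dashed lines mark ratios of 0.5 and 2. In members with Krt79, Sox4 lies at 3.97, Gata6 at 0.878, Crabp2 at 0.354 and Cnfn at 0.0465.

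Markers of other cell types were present in some members. The 8 fibroblast markers summed to 1027 CPM in control and 687 CPM in metformin in members with Krt79, and 10 cells held 50.2% and 72.2% of these UMIs. The 8 T cell markers summed to 62.9 and 156 CPM, the 8 macrophage and dendritic markers to 68.4 and 42.9 CPM, with Cd209d and Mgl2 at 0 in metformin, the 8 endothelial and mural markers to 38.0 and 230 CPM, and the 8 melanocyte and glial markers to 34.4 and 208 CPM. In each library 10 cells held at least 73.0% of the UMIs of these last 4 lists. The highest ratios of metformin over control belonged to genes seen in few cells: Krt75, a companion layer keratin, had 1 and 370 UMIs, with a UMI in 1 control and 19 metformin cells, and Dct, of pigment cells, had 7 and 421 UMIs, with a UMI in 2 control and 13 metformin cells. The part of these cells in the results above was not tested. Hair shaft and inner root sheath genes summed to 50.4 and 158 CPM, with Krt72, Krt33b and Krt81 at 0 in both libraries.

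The libraries had 12108 and 12092 barcodes with 71345558 and 92341365 UMIs, and kept cells had medians of 4238.5 and 6713 UMIs. They shared 41 barcodes, of which 0 belonged to members in both libraries. Scrublet called 49 members as doublets in each library (6.01% and 7.87%), and these were kept.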

How the data were processed

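Single-cell RNA was measured with droplet libraries of mouse skin. The authors deposited, for the control and the metformin library, matrices of UMI counts (genes by barcodes), produced by Cell Ranger 4.0.0 on GRCm38 (mm10), per the file headers and the submitters' processing notes, with 31053 genes listed. Expression with Shi-Bi-Man was not analysed here. The members and the gene lists were chosen with earlier results of these data known. From the counts, UMIs were summed over the cells of a group, scaled to counts per 1000000 UMIs (CPM), and compared as ratios with exact conditional binomial 95% intervals. A gene was measured with at least 20 UMIs, a count of 0 was set to a floor of 3, and a gene was called at 2-fold or more, within each library for comparisons of cells and in the same direction in both. With 1 library per agent no p-value was computed. Comparison cells had fewer than 3 UMIs of Krt79, Cst6 and Defb6. Of 33 lists with 539 symbols, 1 symbol was not matched (Elafin), and Aldoa, listed under more than 1 gene, was left out.

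The genes named are the label markers, in each list those with the highest CPM or the largest ratio, the 10 highest and 10 lowest ratios between libraries, and the 20 highest ratios over comparison keratinocytes (at least 100 UMIs and 50 CPM, without mitochondrial, ribosomal protein and haemoglobin genes). Others, and the split by Krt79, were chosen after their values were seen. Doublets were called with Scrublet (expected share 8%) in scanpy 1.11.5 and kept. The ratio and its interval were tested on simulated counts with counting error only. These held no spread between cells or mice, so the test checks the calculation alone. Python 3.11.15, numpy 2.4.6, scipy 1.17.1, pandas 2.3.3 and matplotlib 3.10.9 were used. Alternatives were the UMI threshold, the Krt17 clause, thinning to 1500 UMIs, the mitochondrial limit, doublets, the scale, the mean over cells and the minimum of UMIs. Some results are not reported here.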

Additional observations from a re-analysis of the deposited data

Results flagged for a closer look

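Acta2, an actin of smooth muscle, was lower in members with a Krt79 UMI than in those without in control, with a ratio of 0.343, and higher in metformin, with a ratio of 9.97. Tagln, an actin-binding protein of smooth muscle, had ratios of 0.384 in control and 143 in metformin. The direction differed between the libraries, and the difference was not tested. In metformin members with Krt79, 10 cells held 97.5% of the Acta2 UMIs and 98.6% of the Tagln UMIs. Of the 441 Tagln UMIs of all metformin members, 440 lay in those with Krt79, so the ratio of 143 has almost no counts below it. In control, Tagln had a UMI in only 17 members, 9 of them with Krt79, so that direction rests on few cells too.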

How the results depend on the processing

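The share of members in kept cells moved with the rule. In control it was 7.83% at 5 UMIs of the rule genes, 5.99% at 20 UMIs, 5.13% after thinning each cell to 1500 UMIs and 8.82% with no Krt17 clause. In metformin it was 5.95%, 4.57%, 3.74% and 6.13% under the same settings. The thinned setting also lowered the rule from 10 to 3 UMIs of the rule genes. It left out 1169 control and 615 metformin cells under 1500 UMIs, so its shares are 533 of 10385 and 416 of 11123 cells. Its values thus do not show thinning alone. The share of members with a Krt79 UMI was 74.3% in control and 87.9% in metformin at 20 UMIs, 58.7% and 75% with no Krt17 clause, and 78.5% in metformin at 5 UMIs. It was higher in metformin under each of these settings run in both libraries. The counts of genes at least 2-fold higher and lower in metformin members, 797 and 408, became 1572 and 755 at a minimum of 5 UMIs and 198 and 206 at 100 UMIs, and 617 were lower with the mean over cells. Over basal cells the counts became 610 and 406 at a minimum of 100 UMIs, and with over without Krt79 372 and 280. For 84 single genes, 752 alternative values were set against the main ratio of metformin over control, taken over all members. Of these, 560 stayed within its counting error, 191 moved further and 1 reversed. A reversal was counted only for genes at least 2-fold apart in the main setting, so smaller ratios that crossed 1 were not counted. Gata6 crossed 1 between all members and those with Krt79. The reversed value was the log2 ratio of Dcn, a fibroblast gene. It was 0.12 without members with 3 or more fibroblast UMIs, an alternative added after the data were seen. No paired analysis was possible because no agent has more than 1 library. Counting error limits genes with few UMIs, and the spread between mice is not known.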
